A study of Mus musculus with 38 samples.

Results

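The effect of the mutant genotype after chronic stress was examined in 10 female mice, 5 mutant and 5 control, whose medial prefrontal cortex was profiled by bulk RNA sequencing. These libraries were those whose animal names begin with FMCVS (mutant) and FCCVS (control), and they form 10 of the 38 libraries of the series. Mutant CVS mice combined SSTCre, in which the somatostatin promoter drives Cre recombinase, with a conditional allele recombined by that Cre, and control CVS mice had SSTCre alone. All 10 animals went through 21 days of chronic variable stress (CVS), and the tissue was taken 24 hours after the last stressor. The same genotypes without stress (NS, 5 female mice each) and stressed males (4 mutant and 6 control) served for comparison. The labels give each library its own animal number and state no age.

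Somatostatin neurons are GABA-releasing interneurons of the cortex that mainly inhibit the dendrites of pyramidal cells, and their peptide gene Sst is one of their defining markers. Cortical activity is reflected in immediate early genes such as Fos, Arc and Egr1, which are transcribed within minutes of strong synaptic input and then shut off by feedback inhibitors of the MAP kinase pathway. Activity also regulates secreted peptides and granins, among them Vgf, a precursor that is cleaved into several neuropeptides. Because Cre is driven by the somatostatin promoter, the allele is altered in a minority of the cells of the dissected tissue, while the RNA comes from all of them. In such bulk tissue fewer cells of a type and less RNA per cell cannot be told apart.

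The 10 libraries held 17.64 to 27.51 M counts. Of 15 summary values compared by two-sided exact permutation tests, among them total counts, mitochondrial share and the summed markers of 12 cell types, tissues or sex, the smallest adjusted p was 0.595, and 5 against 5 libraries can reach no p below 0.00794. Neuron markers summed to 9527 ± 220 CPM (counts per 1 M counts) in mutant CVS and 9783 ± 197 CPM in control CVS (SD, n = 5 each, exact permutation p 0.0794 before adjustment). Sex markers, which include Xist, had the smallest exact permutation p before adjustment (0.0635). They summed to 382 ± 42.7 CPM in mutant CVS and 324 ± 40.9 CPM in control CVS (SD, n = 5 each). Blood markers summed to 58.6 to 184 CPM in mutant CVS and 35.2 to 167 CPM in control CVS libraries, and striatal markers to 369 to 406 CPM against 377 to 418 CPM. Of the 16 striatal markers only 1, Six3, had 0 counts in all 10 libraries. The Y-linked genes Eif2s3y, Uty and Ddx3y also had 0 counts in all 10 libraries, but Kdm5d, also Y-linked, did not.

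Few genes separated the genotypes under stress. Of 16435 tested genes, 4 passed an adjusted p of 0.05 in the quasi-likelihood test of edgeR, adjusted over all genes by the Benjamini-Hochberg procedure (0.0243%), 2 higher and 2 lower in mutants. The higher genes were Ccng1, which encodes cyclin G1, a cyclin induced by p53, and the predicted gene Gm12663. The lower genes were Ublcp1, which encodes a phosphatase that acts on the proteasome, and Vgf. Before adjustment 1164 genes had a p under 0.05 (7.08%), and 189 genes had groups that did not overlap (1.15%).

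Ccng1, Gm12663 and Ublcp1 lie on chromosome 11 of the mouse, and Vgf on chromosome 5. The promoter of Vgf is not shown because it was not in the promoter annotation used. The promoter sequences of Ccng1 and Ublcp1 are shown together with that of Pttg1, another chromosome 11 gene with a large difference, because these are the loci at which the genotypes stood apart. Dusp1 is added as an immediate early gene whose promoter carries the motif searched for in the activity-regulated genes. Each window runs from 250 bases before to 50 bases after the annotated start, read on the minus strand of GRCm38.p6 (RefSeq). Capitals in the Dusp1 window mark TGACGTCA, the cyclic AMP response element, and CACGTG, an E-box.
Ccng1, chr11:40755237-40755536: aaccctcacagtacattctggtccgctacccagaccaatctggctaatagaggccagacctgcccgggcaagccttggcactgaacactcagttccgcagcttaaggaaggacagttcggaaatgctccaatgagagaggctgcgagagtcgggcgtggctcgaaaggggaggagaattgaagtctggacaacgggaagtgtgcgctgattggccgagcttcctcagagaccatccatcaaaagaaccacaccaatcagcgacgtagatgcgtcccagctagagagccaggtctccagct
Ublcp1, chr11:44470499-44470798: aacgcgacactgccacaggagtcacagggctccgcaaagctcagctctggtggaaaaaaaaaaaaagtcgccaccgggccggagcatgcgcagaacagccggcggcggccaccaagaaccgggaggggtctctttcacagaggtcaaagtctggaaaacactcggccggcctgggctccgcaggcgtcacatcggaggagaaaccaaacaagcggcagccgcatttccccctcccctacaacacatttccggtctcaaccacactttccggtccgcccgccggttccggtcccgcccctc
Pttg1, chr11:43425932-43426231: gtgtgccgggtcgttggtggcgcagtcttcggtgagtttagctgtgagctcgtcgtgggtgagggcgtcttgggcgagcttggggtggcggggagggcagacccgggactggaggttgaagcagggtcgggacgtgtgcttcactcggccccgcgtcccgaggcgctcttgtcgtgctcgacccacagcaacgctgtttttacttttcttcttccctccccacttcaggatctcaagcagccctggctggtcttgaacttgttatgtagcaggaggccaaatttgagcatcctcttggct
Dusp1, chr17:26508423-26508722: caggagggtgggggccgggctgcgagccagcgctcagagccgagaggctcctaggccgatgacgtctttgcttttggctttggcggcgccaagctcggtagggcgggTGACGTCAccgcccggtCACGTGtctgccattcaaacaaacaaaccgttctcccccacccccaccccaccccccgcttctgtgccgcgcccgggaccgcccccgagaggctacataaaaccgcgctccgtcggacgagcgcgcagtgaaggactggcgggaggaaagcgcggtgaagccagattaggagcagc

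Ccng1 stood at 84.3, 85.2, 86.5, 81.3 and 93.1 CPM in mutant CVS and at 60.6, 65.6, 62.2, 67.8 and 73.3 CPM in control CVS libraries. Every mutant library was above every control library, and the means were 86.1 ± 4.38 and 65.9 ± 5.00 CPM (SD, n = 5 each). The log2 fold change was 0.38 ± 0.0518 (SE), with an adjusted p of 8.94e-05. Without stress the difference was 0.32 (adjusted p 0.00180), and in stressed males, 94.6 ± 6.63 against 76.5 ± 1.56 CPM (SD, n = 4 and 6), it was 0.31 (adjusted p 0.00437). Of 19 tested p53 targets, 9 had a log2 fold change above 0 and 10 below, with a median of −0.00, and Ccng1 was the member that was called. Btg2, an antiproliferative factor that is also an immediate early gene (0.45 ± 0.242), Plk2, a polo-like kinase (0.08 ± 0.0473), and Sesn2, a sestrin (0.15 ± 0.0960), had the next smallest p values and did not pass.

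Gm12663, a processed pseudogene on chromosome 11 with a predicted-gene name, had 56, 50, 53, 61 and 28 raw counts in mutant CVS and 0, 1, 2, 0 and 2 in control CVS libraries. The sums were 248 and 5 counts, and the groups did not overlap. The fitted log2 fold change was 5.43 ± 0.533 (adjusted p 2.91e-07), a size that depends on the prior count where counts are this low. DESeq2 gave it no adjusted p, and limma voom called it (adjusted p 4.80e-05). Reads of a processed pseudogene can be shared with near-identical copies, so the counts carry that uncertainty.

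Ublcp1 was measured at 23.03, 24.9, 26.6, 26.0 and 31.9 CPM in mutant CVS and 34.4, 32.8, 33.5, 34.7 and 36.5 CPM in control CVS libraries. The groups did not overlap, although mutant CVS replicate 5 stood within 1 CPM of the lowest control. The log2 fold change was −0.38 ± 0.0673 (adjusted p 0.0146), against −0.34 without stress (adjusted p 0.0248) and −0.37 in stressed males, where it did not pass (adjusted p 0.131). DESeq2 (adjusted p 0.000314) and limma voom (adjusted p 0.0129) also called it in stressed females. The edgeR call was lost in 5 of 10 leave-one-out fits and with only the 2 stressed groups or all 38 libraries in the model. In stressed males Ublcp1 was called by DESeq2, by edgeR with all 38 libraries in the model, and by edgeR without male mutant CVS replicate 1.

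Pttg1 encodes securin, the inhibitor of the protease separase, and is 6 protein-coding genes from Ccng1 in the annotated order. It had 3, 7, 2, 7 and 152 counts in mutant CVS and 342, 491, 275, 474 and 337 counts in control CVS libraries. This corresponds to 0.149, 0.326, 0.108, 0.256 and 7.73 CPM in mutants against 17.7, 20.9, 16.01, 19.0 and 17.1 CPM in controls. The groups did not overlap, 4 mutant libraries were close to 0, and replicate 5 stood between them and the controls. The log2 fold change of −3.48 ± 0.846 did not pass (adjusted p 0.413). Without mutant CVS replicate 5 it was −6.35 with an adjusted p of 0.0442. With no library left out, limma voom, which called 5 genes (0.0304%), and edgeR without the robust option also called Pttg1. Unstressed mutants gave 9.84, 0.375, 0.141, 0.321 and 8.34 CPM, and unstressed controls 17.8 to 19.4 CPM. Stressed male mutants stood at 19.4, 10.8, 0.0917 and 0.296 CPM, and stressed male controls at 18.2 to 21.6 CPM. Male mutant CVS replicate 1 thus lay within the control range, and the difference of −1.35 did not pass (adjusted p 0.732).

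Thg1l encodes a transfer RNA guanylyltransferase and lies 20 protein-coding genes from Ccng1, 5 beyond Ublcp1. It stood at 7.97, 8.20, 10.5, 9.15 and 6.66 CPM in mutant CVS and 5.07, 6.00, 6.05, 5.65 and 5.49 CPM in control CVS libraries. The groups did not overlap, but the log2 fold change of 0.59 ± 0.142 did not pass (adjusted p 0.314). Mutant CVS replicate 5 was the library nearest the controls at Thg1l, Ublcp1, Pttg1 and Gm12663, and the highest of the mutants at Ccng1.

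Counts were also taken by chromosome. On chromosome 11, 3 of 1205 tested genes were called, and on other chromosomes 1 of 13806. Groups did not overlap for 0.83% of genes on chromosome 11 and for 1.22% on other chromosomes. The other 1424 tested IDs, 0 of them called, had no chromosome in the annotation used. Within 40 protein-coding genes of Ccng1 on either side, 57 of 81 genes were tested, 2 of these were called and 4 had groups that did not overlap (7.02%), namely Ccng1, Pttg1, Ublcp1 and Thg1l. This window was chosen after their values had been seen, and the counts are a description.

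**Figure D1:**
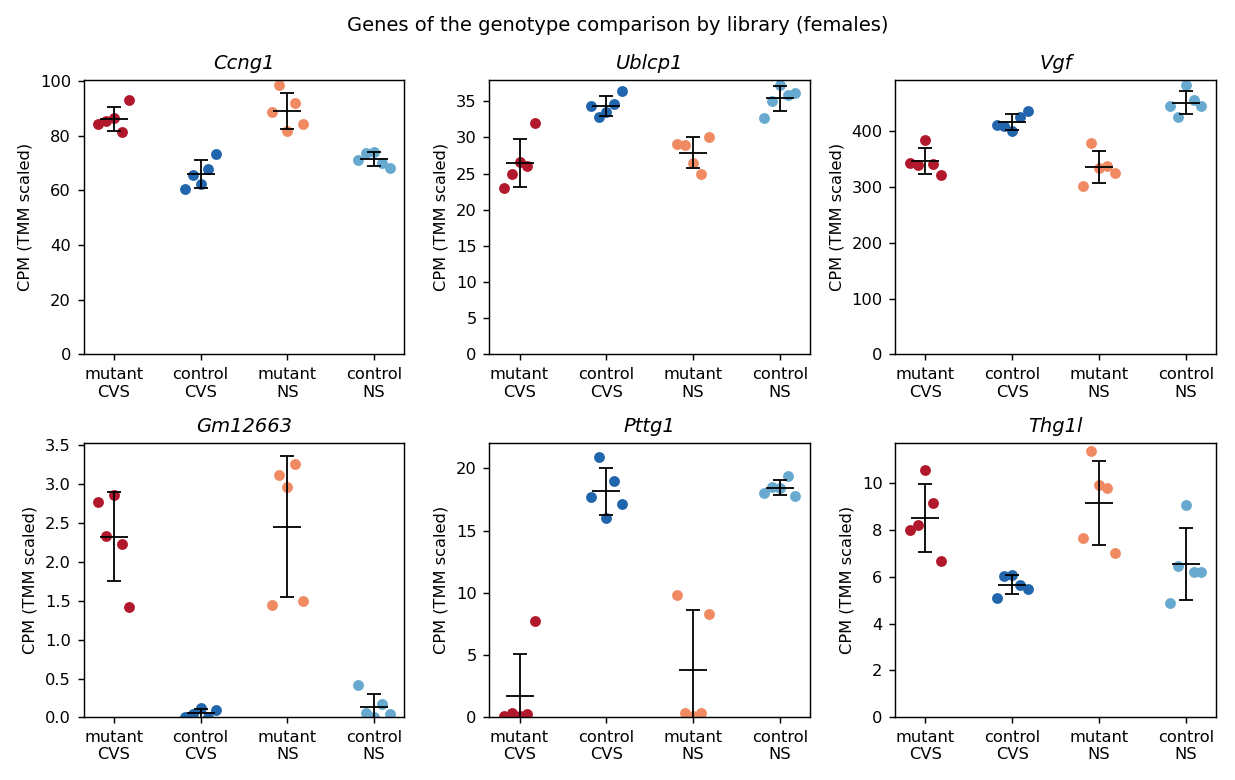
Levels of 6 genes in CPM (TMM scaled), 1 point per library, for mutant CVS, control CVS, mutant NS and control NS females; the horizontal bar is the mean and the whiskers 1 SD (n = 5). Ccng1, Gm12663 and Thg1l sit higher and Ublcp1, Vgf and Pttg1 lower in the mutant CVS than in the control CVS libraries, with mutant CVS replicate 5 at 7.73 CPM for Pttg1.

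**Figure D2:**
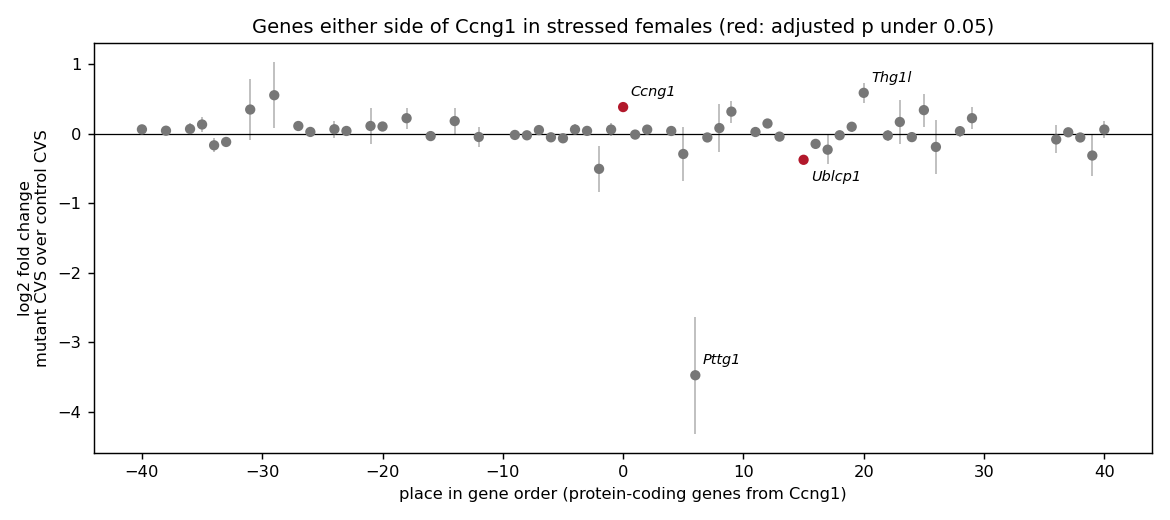
Log2 fold change (mutant CVS over control CVS, bars 1 SE) of the 57 tested genes within 40 protein-coding genes of Ccng1, against place in the gene order, from Ccng1 at 0. Ccng1 and Ublcp1 (red) passed the adjusted p of 0.05, Pttg1 at −3.48 did not, and most other genes lie near 0.

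Vgf was the one called gene away from chromosome 11. It stood at 343, 340, 385, 341 and 322 CPM in mutant CVS and at 411, 409, 400.0, 425 and 436 CPM in control CVS libraries. Every mutant library was below every control library. The means were 346 ± 23.3 and 416 ± 14.4 CPM (SD, n = 5 each), with a log2 fold change of −0.27 ± 0.0476 (adjusted p 0.0166). Without stress it was −0.43 (adjusted p 4.08e-06), and in stressed males −0.24 (adjusted p 0.634), with 366 ± 37.1 against 432.5 ± 58.3 CPM. DESeq2 and limma voom also called Vgf in stressed females. The edgeR call in stressed females was lost in 6 of 10 leave-one-out fits, with adjusted p up to 0.109, and with all 38 libraries in the model (adjusted p 0.585).

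Among 23 tested neuropeptide and granin genes, 15 had a log2 fold change below 0 and 8 above, with a median of −0.05, where 49.9% of all genes were above 0 with a median of −0.00. Vgf was the 1 member called. Chga, which encodes chromogranin A of dense-core vesicles, had 129, 144, 136, 140 and 134 CPM in mutant CVS and 163, 149, 145, 147 and 159 CPM in control CVS libraries. Its groups did not overlap either, but −0.16 ± 0.0425 did not pass (adjusted p 0.400). Adcyap1, the precursor of the peptide PACAP, was at −0.25 ± 0.0670 (adjusted p 0.400). Crh, which encodes corticotropin-releasing hormone, was measured on the other side at 0.37 ± 0.145 (5.97 ± 0.965 against 4.63 ± 0.657 CPM, adjusted p 0.615). Penk, the enkephalin precursor that was lower in stressed male mutants, was at −0.05 ± 0.106 in stressed females (adjusted p 0.955). In unstressed females Penk was at −0.34 and was not called.

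Somatostatin-cell genes were split evenly around 0. Sst itself stood at 143, 156, 133, 130 and 119 CPM in mutant CVS and 126, 119, 116, 132 and 130 CPM in control CVS libraries, and the ranges overlapped. The log2 fold change was 0.13 ± 0.0644 (adjusted p 0.707). Of 16 markers of these interneurons, 8 were above and 8 below 0 (median 0.00), among them Reln, an extracellular matrix protein (0.11 ± 0.0633), Calb1, a calcium buffer (0.08 ± 0.0549), and Tac1, the substance P precursor (−0.18 ± 0.123, or −0.05 without control CVS replicate 5). None of the 16 was called.

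Genes of the fast-spiking parvalbumin interneurons were below 0 in 8 of 12 (median −0.10). The smallest p values belonged to Cplx1, complexin 1 of the vesicle fusion machinery (−0.16 ± 0.0550, adjusted p 0.571), Kcnc2, a Kv3 potassium channel (−0.12 ± 0.0464, adjusted p 0.615), and Vwc2 (−0.25 ± 0.111). Syt2, the calcium sensor of these terminals, was at −0.28 ± 0.136. No member passed under stress, and none did without stress, where 10 of 12 were below 0 and Syt2 was at −0.66 (adjusted p 0.0644). These results depended on the model. Without stress, Syt2 was called by limma voom and by edgeR without the robust option, and Cplx1 by DESeq2. With no filter on low counts, edgeR called Cplx1 in both conditions. In stressed males 9 of 12 were below 0.

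The machinery of GABA signalling gave small values. Of 13 tested GABA-A receptor subunits, 9 were above 0 (median 0.03), among them Gabrb1 (0.05 ± 0.0446), with Gabra3 (−0.05 ± 0.0396) on the other side, and the lowest adjusted p was 0.857. The count above 0 fell to 6 without mutant CVS replicate 4. Genes of the inhibitory postsynapse were above 0 in 6 of 14, with Iqsec3, an exchange factor bound to gephyrin (−0.11 ± 0.0471), and Clptm1, which holds receptors in the endoplasmic reticulum (−0.08 ± 0.0372), among the lowest p values. Clptm1 had groups that did not overlap, at 159 ± 3.38 in mutant CVS and 167 ± 3.54 CPM in control CVS (SD, n = 5 each, adjusted p 0.696). Of 8 genes of GABA synthesis and uptake, 7 were below 0 (median −0.04), with Gad1, the main synthesising enzyme, at −0.08 ± 0.0424 (adjusted p 0.749) and the vesicular transporter Slc32a1 at −0.03 ± 0.0492. None of these 35 genes was called.

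Presynaptic vesicle genes were below 0 in 26 of 35 (median −0.04), and 0 were called, although Cplx1 was called with no filter on low counts. Slc17a7, the vesicular glutamate transporter of cortical pyramidal cells, had 1751, 1797, 1777, 1774 and 1798 CPM in mutant CVS and 1995, 2027, 1824, 1867 and 1921 CPM in control CVS libraries. The ranges were apart, and −0.11 ± 0.0337 did not pass (adjusted p 0.484). Doc2a, a calcium sensor for asynchronous release (−0.16 ± 0.0506), and Syt3, a synaptotagmin (−0.14 ± 0.0518), lay on the same side. Neuron markers, which include Slc17a7, were lower in sum in the mutant libraries as given above, and their part in these values was not tested.

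Immediate early genes lay above 0 in 23 of 28 members, with a median of 0.33, but 0 were called over all genes. At an unadjusted p under 0.05, 12 were higher and 1, Nptx2, was lower, against 3.46% and 3.63% of all tested genes. Sik1, a salt-inducible kinase, stood at 14.1, 9.69, 16.7, 15.1 and 17.1 CPM in mutant CVS and 10.2, 11.3, 11.5, 9.18 and 8.08 CPM in control CVS libraries. Of the 5 mutant libraries 4 were above every control and replicate 2 was within their range, and the log2 fold change was 0.53 ± 0.155 (adjusted p 0.505). With no filter on low counts, edgeR called Sik1. Arc, which encodes a protein of activated synapses, stood at 269, 144, 288, 258 and 309 CPM in mutant CVS and 164, 201, 144, 107 and 188 CPM in control CVS libraries. Replicate 2 was again the one mutant library inside the control range (0.66 ± 0.292, adjusted p 0.672).

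Among the transcription factors of this list, Fos had 28.1, 22.5, 30.9, 32.2 and 34.2 CPM in mutant CVS and 23.4, 17.6, 23.8, 16.8 and 21.6 CPM in control CVS libraries, with an overlap through mutant replicate 2 (0.53 ± 0.247, adjusted p 0.699). Egr1 averaged 313 ± 44.6 in mutant CVS and 248 ± 24.9 CPM in control CVS (SD, n = 5 each, 0.33 ± 0.123, adjusted p 0.615), and Nr4a1, an orphan nuclear receptor, 117 ± 22.5 and 83.8 ± 12.5 CPM (0.48 ± 0.181, adjusted p 0.615). Npas4, induced by calcium entry in neurons, was at 0.33 ± 0.227, and Ppp1r15a, a phosphatase subunit of the integrated stress response, at 0.26 ± 0.0906. Bdnf, the neurotrophin, was at −0.01 ± 0.104.

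For each library, the median deviation of the 28 genes from the control CVS mean (log2 CPM) was 0.34, −0.04, 0.42, 0.38 and 0.52 in mutant CVS libraries. In control CVS libraries it was 0.16, −0.10, 0.10, −0.09 and −0.04. Mutant CVS replicate 2 lay within the control range and the other 4 mutants above it. With each library left out in turn, 23 to 25 members were above 0 and the median ranged from 0.27 to 0.38. The same list was counted in the other comparisons, and the difference between them was not tested for the list. Without stress 12 of 28 were above 0 (median −0.02, where 50.7% of all genes were), and in stressed males 9 of 28 (median −0.14, where 49% of all genes were), where Arc was at −0.90 and Fos at −0.39. None of the 28 genes passed the test of genotype by stress or of the difference between the sexes.

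**Figure D3:**
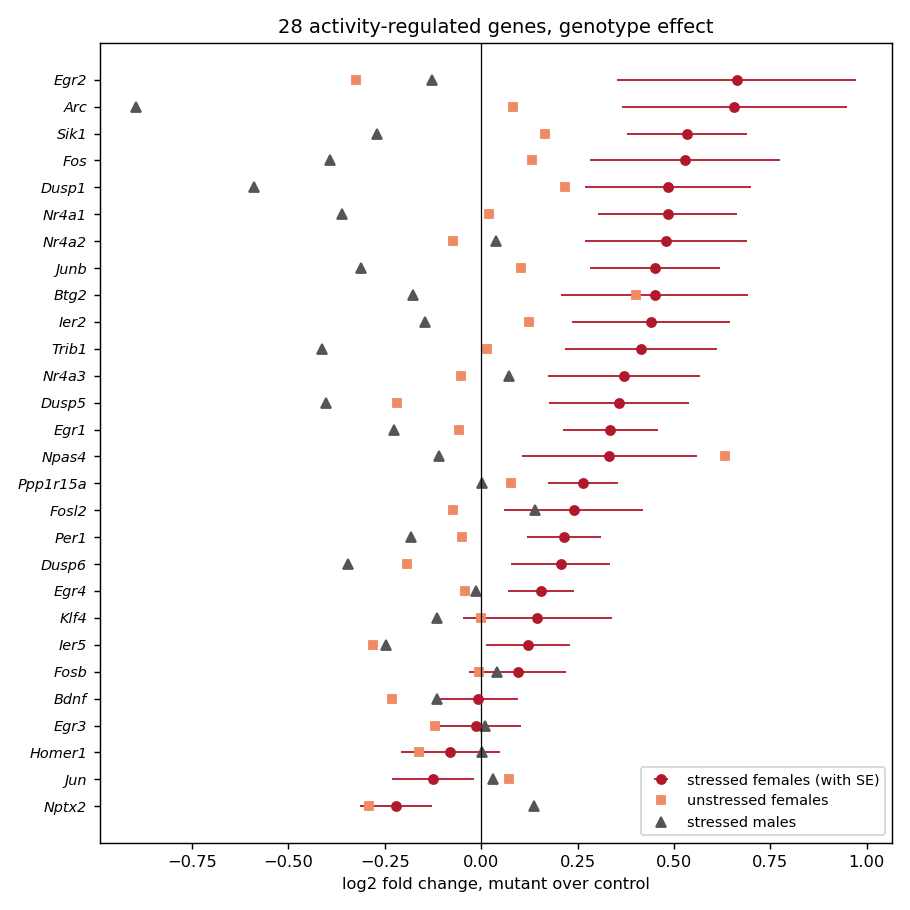
Log2 fold change of mutant over control for the 28 immediate early genes in stressed females (red circles, bars 1 SE), unstressed females (orange squares) and stressed males (grey triangles), ordered by the stressed female value. In stressed females 23 of 28 lie above 0, against 12 in unstressed females and 9 in stressed males.

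Feedback inhibitors of the MAP kinase pathway, which ends in immediate early gene transcription, lay above 0 in 12 of 13 (median 0.11), with 0 called. Spry4, a Sprouty protein that restrains receptor tyrosine kinase signalling, stood at 17.9, 15, 18.9, 18.4 and 19.1 CPM in mutant CVS and 16.4, 14.4, 15.3, 12.8 and 15 CPM in control CVS libraries. The ranges overlapped through mutant replicate 2, and 0.28 ± 0.107 did not pass (adjusted p 0.615). Dusp1 (0.48 ± 0.214) and Dusp4 (0.37 ± 0.168), both phosphatases of MAP kinases, were on the same side, and Spred3 (−0.15 ± 0.0613) was the 1 member below 0. Without stress 1 of 13 was above 0 (median −0.16), and in stressed males 2 of 13 (median −0.12). Dusp1, Dusp5 and Dusp6 belong to this list and to the immediate early genes.

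Clock genes were above 0 in 16 of 19 (median 0.05), against 6 without stress and 4 in stressed males, and 0 were called. Without control CVS replicate 4 the count was 13, and without mutant CVS replicate 5 it was 14 and the median 0.02. Bhlhe40, a repressor of the clock that also responds to activity, stood at 180, 151, 195, 158 and 207 CPM in mutant CVS and 146, 151, 140, 128 and 137 CPM in control CVS libraries. The lowest mutant library equalled the highest control to within 1 CPM, and 0.34 ± 0.102 did not pass (adjusted p 0.508). Per1, a period gene in both lists (0.21 ± 0.0955), Cry1, a cryptochrome (0.15 ± 0.0633), and Hlf, an output factor (0.11 ± 0.0530), were also above 0. Dbp, the output factor with the widest daily swing among these, was at −0.02 ± 0.0957. The time of day of dissection is not given in the sources used here.

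Glucocorticoid-induced genes were split, with 9 of 21 above 0 (median −0.05). Fkbp5, a co-chaperone of the glucocorticoid receptor, stood at 25.2, 26.8, 33.2, 28.2 and 36.2 CPM in mutant CVS and 29.1, 50.8, 32.4, 28.7 and 33.7 CPM in control CVS libraries (−0.23 ± 0.147, adjusted p 0.817). Without control CVS replicate 2 the difference was −0.05. Sgk1, a kinase induced by corticosteroids, reached 54.8 CPM in the same control library, replicate 2, and 31.6 to 38.1 CPM in the other controls, with 31.6 to 39.6 CPM in mutants (−0.14 ± 0.134, adjusted p 0.891). Without control CVS replicate 2, 15 of the 21 genes were above 0 and the median was 0.01. Tiparp (0.36 ± 0.105, adjusted p 0.484), a target of the aryl hydrocarbon receptor, and Zbtb16, a zinc finger repressor (−0.21 ± 0.0666, adjusted p 0.508), had the smallest p values in either direction.

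Cytosolic ribosomal protein genes were above 0 in 76 of 80 (median 0.07). At an unadjusted p under 0.05, 27 were higher and 0 lower, beside 3.46% and 3.63% of all tested genes, and 0 were called. Rps27 stood at 91.7, 90.1, 81.4, 89.6 and 88.6 CPM in mutant CVS and 76.1, 77.1, 76.3, 88.4 and 72.0 CPM in control CVS libraries, with an overlap through control replicate 4 (0.18 ± 0.0510, adjusted p 0.478). Rpl12 (0.15 ± 0.0459), Rps16 (0.13 ± 0.0426) and Rpl14 (0.14 ± 0.0443) had similar values. The per-library medians were 0.15, 0.12, 0.04, 0.07 and 0.00 in mutant CVS and 0.02, −0.04, −0.01, 0.07 and −0.03 in control CVS libraries, so the groups overlapped. In stressed males 79 of 80 were above 0 (median 0.11) and without stress 56 of 80 (median 0.02). Many of these genes have near-identical pseudogenes, and how shared reads were counted is not given in the sources used here.

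**Figure D4:**
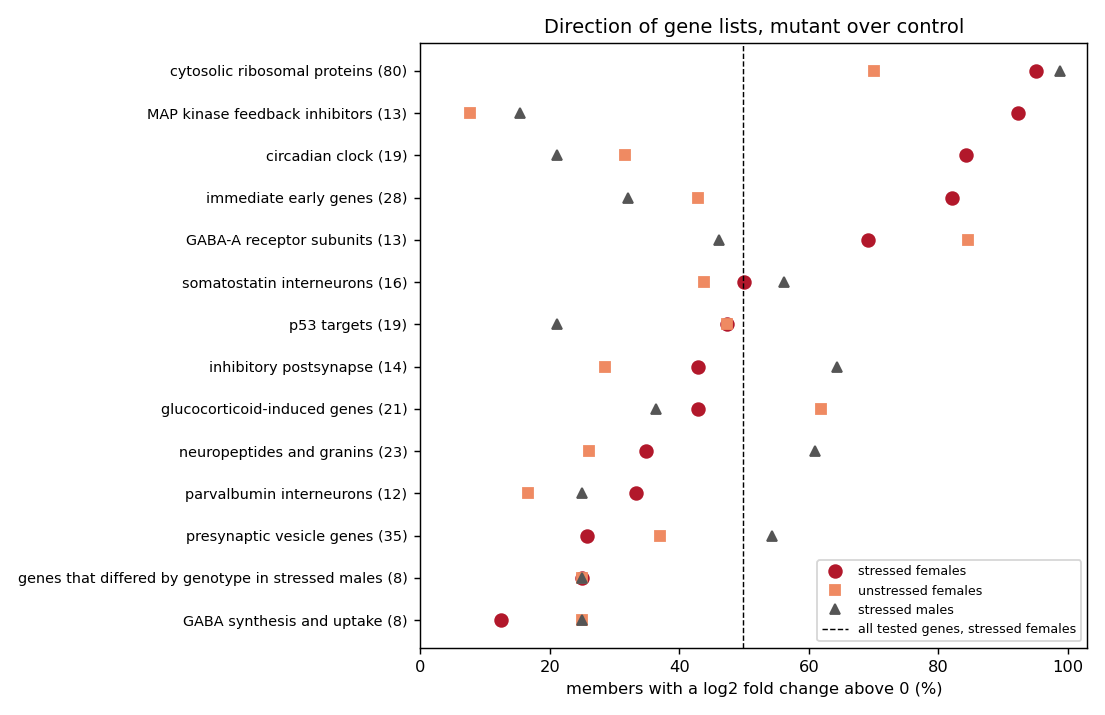
Share of members (%) with a log2 fold change above 0, mutant over control, for 14 gene lists (tested members in stressed females in brackets), in stressed females (red circles), unstressed females (orange squares) and stressed males (grey triangles). The dashed line marks the 49.9% of all tested genes in stressed females. Immediate early, MAP kinase feedback and clock genes lie right of the line in stressed females and left of it in the other comparisons.

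**Figure D5:**
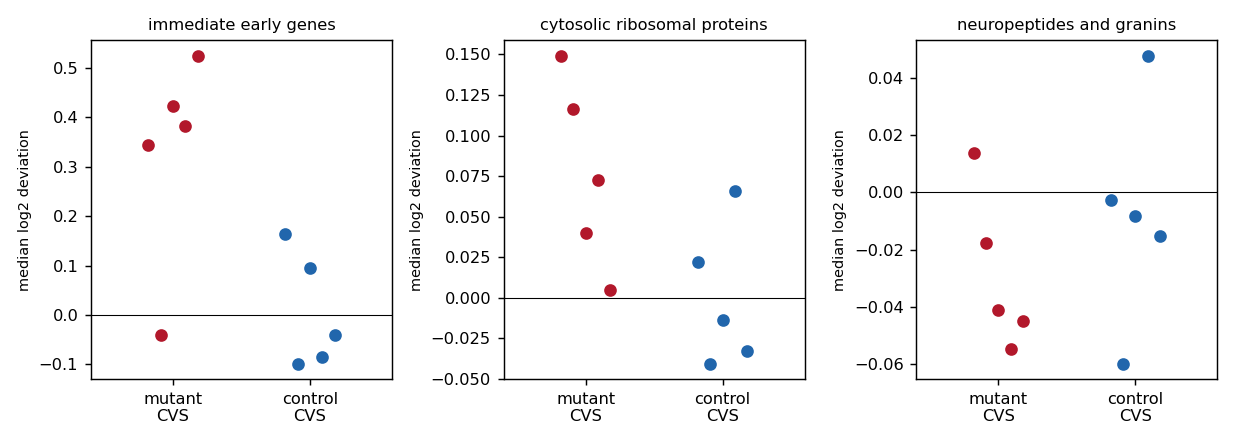
Median deviation of each library from the control CVS mean (log2 CPM) over the members of 3 lists, 1 point per library, mutant CVS left and control CVS right. For immediate early genes 4 mutant libraries lie at 0.34 to 0.52, above the controls, and 1 at −0.04, and for the ribosomal proteins and neuropeptides the groups overlap.

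Among the genes with the smallest p values that did not pass were, on the higher side, Mcl1, Thg1l, Kif5b, Ankrd63 and Rbm12b2. Mcl1, which encodes a survival factor of the BCL2 family, stood at 65.1, 66.5, 67.4, 61.1 and 65.8 CPM in mutant CVS and 55.7, 59.0, 54.3, 52.97 and 59.1 CPM in control CVS libraries. There was no overlap (0.21 ± 0.0471, adjusted p 0.162). Kif5b, a kinesin heavy chain (0.16 ± 0.0391), also had separate groups, while those of Ankrd63 (0.25 ± 0.0644) and Rbm12b2 (0.42 ± 0.108) overlapped. Their adjusted p ranged up to 0.385.

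On the lower side these genes were Iglon5, Stum, Cdk18, Ap1b1, Rph3a and Gfra2. Ap1b1, a subunit of the AP-1 clathrin adaptor, had 181, 181, 184, 192 and 188 CPM in mutant CVS and 205, 205, 206, 204 and 204 CPM in control CVS libraries. The ranges were apart, and the controls differed by under 3 CPM (−0.15 ± 0.0340, adjusted p 0.209). Stum, a transmembrane protein named after a Drosophila mechanosensory gene (−0.15 ± 0.0331, adjusted p 0.160), Cdk18, a kinase (−0.28 ± 0.0646), and Rph3a, the vesicle protein rabphilin 3A (−0.15 ± 0.0371), also had separate groups. Iglon5, a neuronal adhesion protein (−0.32 ± 0.0708), and Gfra2, the neurturin receptor (−0.16 ± 0.0396), had overlapping ones. DESeq2 called 14 of the 7195 genes to which it gave an adjusted p (0.195%), among them Mcl1 and all 6 of the lower genes.

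Without stress the same genotypes differed in 21 genes (0.128%), 7 higher and 14 lower, and Ccng1, Gm12663, Ublcp1 and Vgf were among them. Whether the genotype difference changed with stress was tested as an interaction, and edgeR called 0 of 16435 genes (0%). At an unadjusted p under 0.05 there were 658 (4%). DESeq2 and limma voom also called 0, but edgeR with no filter on low counts called 5 of 32366 genes. These were Col6a2, Dusp4, Plk3, Spry4 and Thsd4. In the filtered edgeR fit the smallest p values belonged to Dmrta2 (0.80), Spry4 (0.53), Syt12, a synaptotagmin (0.27), and Med31 (0.50) on the positive side. On the negative side they belonged to Khnyn (−0.34), Rbm47 (−1.63), Coq3 (−0.41) and Col6a2, a collagen VI chain (−0.65). Each had an adjusted p of 1.00. Syt12, called at −0.37 without stress, was at −0.10 ± 0.0553 under stress, and Col6a2, called at 0.61 without stress, was at −0.04 ± 0.117. Across 16435 genes the log2 fold changes of both conditions had a Pearson r of 0.199, a description in which genes are not independent replicates.

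Stressed males, from a separately named series of animals, gave 9 called genes of 17212 (0.0523%). Of these 9, Ccng1 and Gm12663 were also called in stressed females. In males Gm12663 stood at 0, 1.15, 2.11 and 2.56 CPM in mutant CVS and at 0 to 0.106 CPM in control CVS libraries, with an overlap through mutant replicate 1 (fitted log2 fold change 4.57, adjusted p 0.0170). Megf11, a marker of oligodendrocyte precursors, was at −0.21 ± 0.0790 in stressed females (adjusted p 0.600) and −0.56 in males. Cpne9, a copine, was at −0.15 ± 0.0548 against −0.31, and Igfn1 at −0.32 ± 0.175 against −0.79. Crym, a thyroid hormone-binding protein, was at 0.03 ± 0.110 against 0.44. Without stress, Megf11 was also called lower in female mutants (edgeR adjusted p 0.0248). Of the 8 male genes other than Gm12663, 6 were below 0 and 2 above in unstressed females (median −0.25). At an unadjusted p under 0.05, 5 were lower and 2 higher there, beside 4.62% and 3.45% of all tested genes. In stressed females 2 were lower and 1 higher (median −0.13), beside 3.63% and 3.46% of all tested genes. The difference between the sexes, tested over all 38 libraries, was called for 0 of 17671 genes (0%) by edgeR. At an unadjusted p under 0.05 there were 1256 (7.11%). DESeq2 called 1 (0.00566%), Frat1, an inhibitor of GSK3 (−0.51 in edgeR, adjusted p 0.227), and limma voom 0. Females and males were also separately named series of animals, so sex and series cannot be told apart. The most abundant ID took 4.21 to 7.83% of counts in female and 0.0451 to 0.406% in male libraries, and mitochondrial transcripts 3.26 to 4.08% and 5.13 to 6.66%. With those transcripts left out, or the share of that ID as a covariate, edgeR also called 0. Mcl1 (0.28), Pkn2 (0.38), Phip (0.31) and Shroom2 (0.27) had the smallest p values on the positive side, and Frat1, Gfra2 (−0.29), Cdk18 (−0.37) and Tbcc (−0.41) on the negative side. Across 16333 genes the log2 fold changes of stressed females and stressed males had a Pearson r of 0.0669.

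The promoter table held 21 of the 28 immediate early genes, and TGACGTCA, searched on both strands, was in 3 of them (14.3%), Btg2, Dusp1 and Ppp1r15a, against 2.03% of all 27025 genes with a promoter in the table. In Dusp1 it starts at base 108 of the window shown and CACGTG at base 125. Of the 24 neuropeptide genes 19 had a promoter in the table, and Vgf was not one of them, so it was not searched. Among these 19 genes 5 held TGACGTCA (26.3%), namely Cartpt, Chgb, Pcsk1, Scg2 and Sst. CACGTG was in 5 of 17 clock genes (29.4%), Bhlhe41, Ciart, Cry1, Per1 and Tef, against 8.09% of all genes. The D-box TTATGTAA was in 1 clock gene, Per3, and in 1.11% of all genes, and the TATA box TATAAA in 4 of 21 immediate early genes (19%) and 15.7% of all genes. The windows of Ccng1, Ublcp1 and Pttg1 held none of these 4 motifs.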

How the data were processed

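RNA of dissected medial prefrontal cortex was sequenced as 150-bp paired-end reads (20 M planned, mRNA from 400 ng of total RNA, NEBNext Ultra II Directional kit), per the labels' protocols. Reads were processed with fastp 0.23.2, STAR 2.7.10b and featureCounts on GRCm39, per the submitters' processing notes; no source used here states the annotation release or strand setting. The authors deposited raw counts per gene for 38 libraries (57010 gene IDs, 22462 at 0 throughout). Symbols for 52029 IDs, and gene order, came from annotation of GRCm38.

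edgeR 4.0.16 in R 4.3.3 fitted the 4 female groups (TMM, filterByExpr minimum count 10 and total 15, robust glmQLFit and glmQLFTest), leaving 16435 genes. Males (17212 genes) and all 38 libraries (17671) were fitted likewise. P values were adjusted over all genes, threshold 0.05. The SE is the absolute log2 fold change over the square root of F. CPM are TMM scaled within a sex. Alternatives were DESeq2 1.42.0, limma voom 3.58.1, other scalings, filters and library sets. Scripts were tested on simulated data for the stressed female comparison. Of genes simulated with an absolute log2 fold change of 0.3, 47.1% were called, with 74.2% at 0.5 and 90.5% at 1. The simulation changed 68, 66 and 63 genes at these sizes, and 8 unchanged genes were also called. With so many changed genes the adjustment was less strict than in the data, where 4 genes were called. The shares called can therefore be higher than in the data. A gene that was not called can therefore still differ by such amounts. Plots used matplotlib 3.10.9 (Python 3.11.15).

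Named genes were all called genes with no predicted or clone-based name, up to 12 per direction (Gm12663 was added), the 6 smallest p per direction not called, up to 4 members of 14 described lists, the 4 smallest p per direction of the interaction and sex tests, and a fixed set. Members and lists were chosen with earlier results of these data known. The gene targeted by the conditional allele and some others that the rule names are not reported here. Library pairs within the groups were checked for copies: chi-square per degree of freedom was 3.91 to 16.6 in 20 pairs, and 0 were identical. The labels name separate animals but not separate cages or litters.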

Additional observations from a re-analysis of the deposited data

Results flagged for a closer look

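Each value of 87 named genes was checked for a lone library within its group of 5, which made 174 groups, and 13 stood apart by Dixon's test, where chance gives about 1 in 20 groups. Pttg1 had the widest gap, with 7.726 CPM in mutant CVS replicate 5 against 0.108 to 0.326 CPM in the other 4 mutant CVS libraries. Control CVS replicate 2 held 3 of the lone values: Fkbp5 at 50.84 CPM (28.7 to 33.7 in the other controls), Sgk1 at 54.76 CPM (31.6 to 38.1) and Cry1 at 20.23 CPM, the lowest of its group. Lone values in other mutant CVS libraries were Shroom2 at 87.74 CPM in replicate 3 and Col6a2, which stood at 20.22 CPM in replicate 2. Coq3 stood at 14.31 CPM in replicate 1, and Doc2a was lowest in replicate 1 at 76.12 CPM. In the other control CVS libraries, Rbm12b2 was highest at 8.324 CPM and Phip at 37.66 CPM in replicate 3. Tac1 reached 16.83 CPM and Megf11 23.64 CPM in replicate 5, and Map3k6 was lowest in replicate 4 at 2.565 CPM.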

How the results depend on the processing

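The count of 4 genes in stressed females became 23 with no filter on low counts, 14 with DESeq2 and 2 with all 38 libraries in 1 model, and was 3 to 5 under the other scalings, filters and models. It ranged from 2 to 5 with single libraries left out, and was 2 without control CVS replicate 4 or 5 or mutant CVS replicate 1, 2 or 4. Ccng1 and Gm12663 stayed called in each of these 10 fits, Ublcp1 in 5 and Vgf in 4. The 23 genes called with no filter included Sik1 and Cplx1. The unstressed count of 21 became 118, 88, 8 (covariate for the most abundant ID) and 7 (all 38 libraries) and ranged from 6 to 47. The male count of 9 became 43 with no filter and 27 with DESeq2 and ranged from 1 to 12. The interaction gave 5 genes with no filter, and the sex difference 1 with DESeq2. The cause of these shifts was not tested.

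Several values near 0 changed sign when single libraries were left out, given as lowest and highest. Median log2 fold changes ran from −0.0011 to 0.0385 for GABA-A receptor subunits, −0.0368 to 0.0129 for somatostatin-cell genes, −0.0122 to 0.0219 for p53 targets and −0.0915 to 0.0149 for glucocorticoid-induced genes. Log2 fold changes ran from −0.10 to 0.0011 for Col6a2, −0.12 to 0.0123 for Penk, −0.0271 to 0.11 for Crym, −0.21 to 0.0147 for Sgk1, −0.0744 to 0.0579 for Bdnf and −0.0822 to 0.0503 for Dbp. Mutant minus control CVS, total counts ran from −1.145 to 1.314 M and the mitochondrial share from −0.01954 to 0.1861 percentage points. Summed marker differences in CPM ran from −149.7 to 112.3 for astrocytes, −66.68 to 9.449 for myelin, −23.95 to 0.6045 for microglia, −15.12 to 16.29 for endothelial cells, −16.3 to 5.332 for meninges and −11.61 to 4.568 for olfactory bulb. No paired analysis was possible because the animal numbers are not shared between the groups. At this depth genes with few counts, such as Gm12663, rest on under 100 counts per library.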

Other observations

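Other lists of genes gave values that were not called. Genes of the unfolded protein and integrated stress responses lay above 0 in 19 of 20 members in stressed females (median 0.07), with Atf5 at 0.31 ± 0.159 and Atf4, the central factor of the integrated stress response, at 0.19 ± 0.103 (115 against 100.4 CPM in mutant CVS and control CVS, SE of the log2 fold change given, edgeR adjusted p 0.742 and 0.749). Enzymes of serine and one-carbon metabolism were above 0 in 15 of 19 (median 0.04), led by Psph, the last enzyme of serine synthesis, at 0.23 ± 0.0856 (adjusted p 0.588). Interferon-induced and MHC class I genes were below 0 in 16 of 22 (median −0.05), with Ifit3b at −0.43 ± 0.141 (adjusted p 0.511). AMPA and NMDA receptor genes were below 0 in 12 of 16 (median −0.02), with Grin2d, an NMDA receptor subunit of interneurons, at −0.25 ± 0.0878 (adjusted p 0.571).

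Hemoglobin and other blood genes were above 0 in 6 of 6 tested members in stressed females (median 0.48), with Hbb-bs at 62.9 against 42.4 CPM in mutant CVS and control CVS and overlapping libraries (adjusted p 0.842). Microglial markers were below 0 in 13 of 16 (median −0.05), with Tmem119 at −0.12 ± 0.0674 (adjusted p 0.770).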
